A study of Mus musculus with 6 samples.

Results

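Inflammasome and NOD-like receptor genes were compared between unstimulated bone marrow-derived macrophages of wild-type mice (WT) and of mice with a Gps2 knockout (GPS2KO). The set held 10 named genes, Nlrp3, Nlrc4, Naip2, Naip5, Nod1, Nod2, Pycard, Casp1, Casp4 and Gsdmd, out of 18820 tested genes. All 10 were measured, each by 1 probe set of an Affymetrix expression array. A gene was taken from probe sets with a single platform symbol, and where a gene has several, the probe set with the highest mean over the arrays stands for it. Each group had 3 arrays, with 1 array per sample, from male mice of 12 to 16 weeks. Macrophages were grown from marrow over 7 days in medium with 30% supernatant of L929, a fibroblast line that secretes macrophage growth factor, and no stimulus was given. The labels name the knockout as GPS2KO or MKO and describe it as a macrophage knockout. They give neither a Cre driver nor the deleted exons. Nothing states that the arrays of a group came from different mice, and the p-values then measure only the variation among these samples, part of which may be technical.

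Inflammasomes are cytosolic complexes that turn the detection of microbes or cell damage into proteolysis. A sensor such as NLRP3, or a NAIP protein together with NLRC4, assembles with the adaptor ASC, the product of Pycard, and activates caspase-1. Caspase-1 matures interleukin-1 beta and interleukin-18 and cleaves gasdermin D, whose fragment forms pores in the plasma membrane. Mouse caspase-11, encoded by Casp4, detects lipopolysaccharide in the cytosol and cleaves gasdermin D as well, whereas NOD1 and NOD2 detect fragments of bacterial cell walls and signal to NF-kappaB. In macrophages, transcription of Nlrp3 and of the interleukin-1 genes is low at rest and is raised by a priming stimulus, which these cultures did not receive. GPS2 belongs to the NCoR/SMRT co-repressor, which restrains inflammatory genes.

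Among the 10 genes, Nlrp3 fell in GPS2KO macrophages, 0 rose and 9 did not pass the threshold. The threshold was an adjusted p under 0.05 in limma with Benjamini-Hochberg adjustment over all tested genes. Over all tested genes 6.72% passed, 3.83% as falls and 2.9% as rises, so 1 call among 10 genes lies near the background. None of the 10 was dim, a term used here for a gene whose average signal is below 5.49 (40th percentile of tested genes), and among genes that are not dim 6.06% fell. The mean was lower in GPS2KO for 6 genes and higher for 4, with changes from -0.23 to 0.12 and a median of -0.14 on the log2 scale, against a median of -0.01 over all tested genes. Values are RMA log2 intensities, and a change is the GPS2KO mean minus the WT mean. The arrays of the groups did not overlap for 6 of the 10 genes, where this held for 27.1% of all tested genes and 37.3% of those that are not dim. An unadjusted p under 0.05 in limma was reached by 5 of the 10, against 20.8% of all tested genes. That share includes dim genes, and it was not computed for genes that are not dim.

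**Figure D1:**
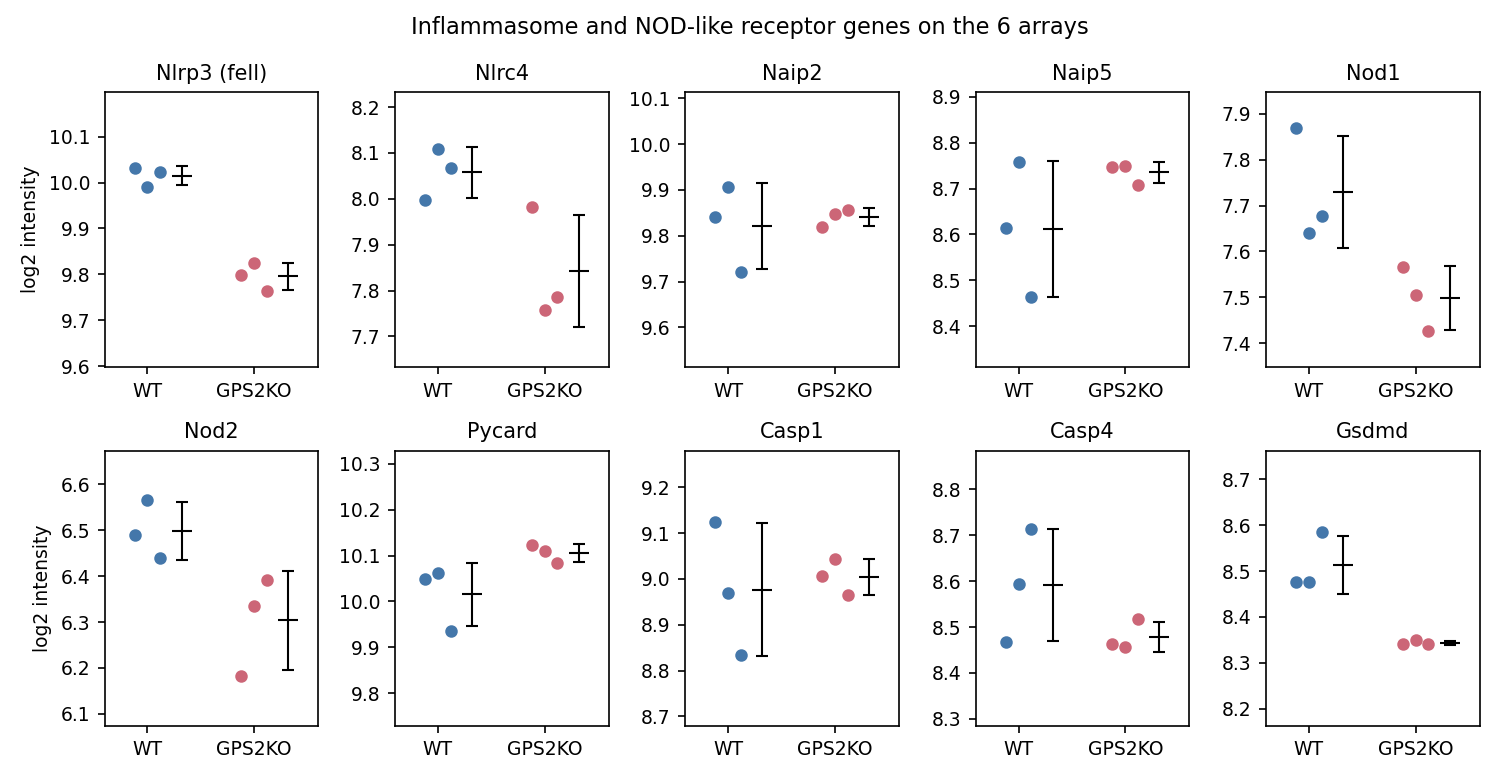
Log2 intensity of the 10 genes on each array, with WT in blue and GPS2KO in red. Black marks give the mean and SD of 3 arrays, and every panel spans the same height of log2 units around its own centre. The Nlrp3 arrays lie between 9.991 and 10.031 in WT and between 9.764 and 9.824 in GPS2KO.

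Nlrp3, the sensor of the inflammasome that responds to potassium efflux and many forms of membrane damage, was at 10.031, 9.991 and 10.024 in WT and at 9.798, 9.824 and 9.764 in GPS2KO. All 3 GPS2KO arrays were below all WT arrays, and both groups were tight, at 10.02 ± 0.021 and 9.80 ± 0.030 (SD, n = 3 each). Nlrp3 fell by 0.22 on the log2 scale (SE 0.0379, 95% confidence interval -0.31 to -0.13; limma adjusted p = 0.0143), to 85.9% of the WT signal. An exact permutation test of 3 against 3 arrays cannot go below p = 0.1, so for single genes the statements rest on the fit over all genes, which pools their variances. The call ended without WT replicate 1 (adjusted p = 0.0529), without GPS2KO replicate 1 (0.0506) and without GPS2KO replicate 3 (0.0622), and the change stayed between -0.23 and -0.20 with any 1 array left out.

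The promoter sequences of Nlrp3, Pycard, Casp1 and Casp4 are shown, as those of the sensor that fell and of its adaptor and the caspases, which did not pass. For Nlrp3 and Casp4, with 2 start sites each, the upstream one is shown. The Casp1 sequence holds no marked match. Each is the 250 bases before the start site, read 5′ to 3′ on the strand of the gene, from RefSeq with build GRCm38.p6. Capitals mark matches to the kappaB consensus, which NF-kappaB binds, or to GAGGAAG, the core bound by the myeloid factor PU.1. The PU.1 core was searched on either strand, but the kappaB consensus only on the strand of the gene.
Nlrp3, chr11:59541319-59541568, plus strand: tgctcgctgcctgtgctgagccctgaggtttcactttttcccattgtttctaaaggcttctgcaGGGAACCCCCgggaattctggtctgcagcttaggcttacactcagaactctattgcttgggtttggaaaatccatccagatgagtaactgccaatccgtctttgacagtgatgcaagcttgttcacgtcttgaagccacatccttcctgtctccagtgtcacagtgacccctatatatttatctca
Pycard, chr7:127993868-127994117, minus strand: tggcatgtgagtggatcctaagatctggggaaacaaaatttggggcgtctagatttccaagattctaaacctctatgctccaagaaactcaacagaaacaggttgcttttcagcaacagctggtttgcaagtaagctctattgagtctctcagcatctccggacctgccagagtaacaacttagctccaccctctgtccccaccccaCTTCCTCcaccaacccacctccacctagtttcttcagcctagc
Casp1, chr9:5298267-5298516, plus strand: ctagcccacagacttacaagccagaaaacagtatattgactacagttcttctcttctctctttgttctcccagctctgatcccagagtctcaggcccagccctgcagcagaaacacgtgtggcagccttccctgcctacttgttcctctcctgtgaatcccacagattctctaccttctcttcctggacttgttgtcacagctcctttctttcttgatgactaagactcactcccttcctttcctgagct
Casp4, chr9:5308599-5308848, plus strand: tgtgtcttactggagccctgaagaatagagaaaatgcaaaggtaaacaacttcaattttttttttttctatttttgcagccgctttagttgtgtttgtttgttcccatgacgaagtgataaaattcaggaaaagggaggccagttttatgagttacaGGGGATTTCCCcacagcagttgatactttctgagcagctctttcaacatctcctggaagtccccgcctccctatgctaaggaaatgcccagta

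Promoter windows of 300 bases, 250 before and 50 after a start site, were found for 9 of the 10 genes, all but Gsdmd. The kappaB consensus was present on the strand of the gene for 3 of these 9 (Nlrp3, Casp4 and Naip5), and for 6.72% of all 27025 genes with a window. The consensus was present for 7.8% of tested genes with a window and for 12.2% of those that fell. Its matches on the other strand were not counted, whereas the other motifs were searched on either strand. The Nlrp3 match begins 186 bases before the start. In Casp4 a pair of overlapping matches begins 93 and 92 bases before it. The PU.1 core was present for 2 of the 9, Pycard and the second start site of Nlrp3, against 15.4% of all genes. Its share was 15.1% of tested genes with a window and 22.3% of those that fell. The core of the interferon-stimulated response element, GAAANNGAA, was present for 1, Naip2, against 9.76% of all genes and 12.2% of tested genes that fell. The gamma-activated sequence TTCNNNGAA was present for 1, Nod1, against 9.55% and 8.01%. No match of one motif overlapped a match of another. The matches describe these letters in these windows and were not tested as binding sites.

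Nlrc4, the platform that NAIP proteins activate after binding flagellin or secretion system proteins, was at 7.998, 8.109 and 8.067 in WT and at 7.983, 7.757 and 7.787 in GPS2KO. GPS2KO replicate 1 lay just under the lowest WT array, while the other GPS2KO arrays were clearly lower. The change was -0.22 (SE 0.0662, interval -0.37 to -0.06) and did not pass (limma adjusted p = 0.107). Without GPS2KO replicate 1 it was -0.29 and passed (adjusted p = 0.0318), and without any other array it did not.

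Naip2 encodes a receptor for the rod protein of bacterial secretion systems and Naip5 one for flagellin. Naip2 was at 9.840, 9.906 and 9.721 in WT and at 9.820, 9.847 and 9.856 in GPS2KO, so all GPS2KO values lay within the WT range. Its change was 0.02 (interval -0.10 to 0.14; adjusted p = 0.886 in limma), an interval that runs from 93.0% to 110% of the WT signal. Naip5 was at 8.615, 8.758 and 8.463 in WT and at 8.747, 8.750 and 8.708 in GPS2KO. Its change of 0.12 (interval -0.04 to 0.29) did not pass either (adjusted p = 0.39), and here too the GPS2KO arrays lay inside the WT range. WT replicate 3 was the lowest of the 6 arrays for both genes. Without it the changes were -0.03 for Naip2 and 0.05 for Naip5, and without WT replicate 2 they were 0.06 and 0.20. Naip2, Naip5 and Naip6 are close paralogs, and the annotation gives the probe sets of Naip5 and Naip6 a transcript accession in common, so their probes may share signal.

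NOD1 recognises a peptidoglycan fragment common in Gram-negative bacteria, and NOD2 recognises muramyl dipeptide. Nod1 was at 7.869, 7.641 and 7.678 in WT and at 7.565, 7.505 and 7.426 in GPS2KO. WT replicate 1 stood above the other WT arrays, and the groups did not overlap. The difference was -0.23 (SE 0.0684, interval -0.39 to -0.07), the lowest value among the 10 genes, but the spread within WT was wide and it did not pass (limma adjusted p = 0.0971).

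Nod2 was at 6.489, 6.565 and 6.439 in WT and at 6.183, 6.336 and 6.392 in GPS2KO. Its groups were separated by a narrow gap, since GPS2KO replicate 3 came close to the lowest WT array. The difference was -0.19 (SE 0.0630, interval -0.34 to -0.05; limma adjusted p = 0.127). With any 1 array left out, neither NOD receptor passed: the adjusted p ran from 0.0966 to 0.247 for Nod1 and from 0.117 to 0.263 for Nod2.

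Pycard, the adaptor that polymerises into the ASC speck, was at 10.048, 10.062 and 9.936 in WT and at 10.122, 10.109 and 10.083 in GPS2KO. The GPS2KO arrays were all above the WT arrays, by a small margin. The difference was 0.09 (SE 0.0458, interval -0.02 to 0.20; limma adjusted p = 0.329), so a fall of the size seen for Nlrp3 lies outside its interval. Without WT replicate 3 it was 0.05.

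Casp1, the effector protease of the canonical inflammasome, was at 9.125, 8.969 and 8.835 in WT and at 9.007, 9.043 and 8.965 in GPS2KO. The WT arrays were spread on both sides of the GPS2KO arrays. The difference was 0.03 (SE 0.0720, interval -0.14 to 0.20; limma adjusted p = 0.868), between 90.8% and 115% of the WT signal. It was 0.10 without WT replicate 1 and -0.04 without WT replicate 3, so its sign rests on single arrays.

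Casp4, whose product senses cytosolic lipopolysaccharide, was at 8.468, 8.594 and 8.713 in WT and at 8.462, 8.457 and 8.517 in GPS2KO. The groups overlapped, because WT replicate 1 lay among the GPS2KO arrays. The difference was -0.11 (SE 0.0634, interval -0.26 to 0.03; limma adjusted p = 0.373). It was -0.18 without WT replicate 1 and -0.05 without WT replicate 3. Casp1 and Casp4 are neighbours on chromosome 9, and neither passed under any setting tried.

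Gsdmd, the pore-forming substrate of both caspases, was at 8.476, 8.477 and 8.586 in WT and at 8.341, 8.349 and 8.340 in GPS2KO. The GPS2KO arrays differed from each other very little (SD 0.0046) and were all lower than the WT arrays. The difference was -0.17 (SE 0.0436, interval -0.27 to -0.07), to 88.9% of the WT signal, and fell short of the threshold (limma adjusted p = 0.0639). Gsdmd passed in limma when arrays were centred on the median of all probe sets (-0.19, adjusted p = 0.0351), without dim genes (0.026) and with a variance trend (0.039). With any 1 array left out it did not pass, at adjusted p from 0.0966 to 0.165.

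**Figure D2:**
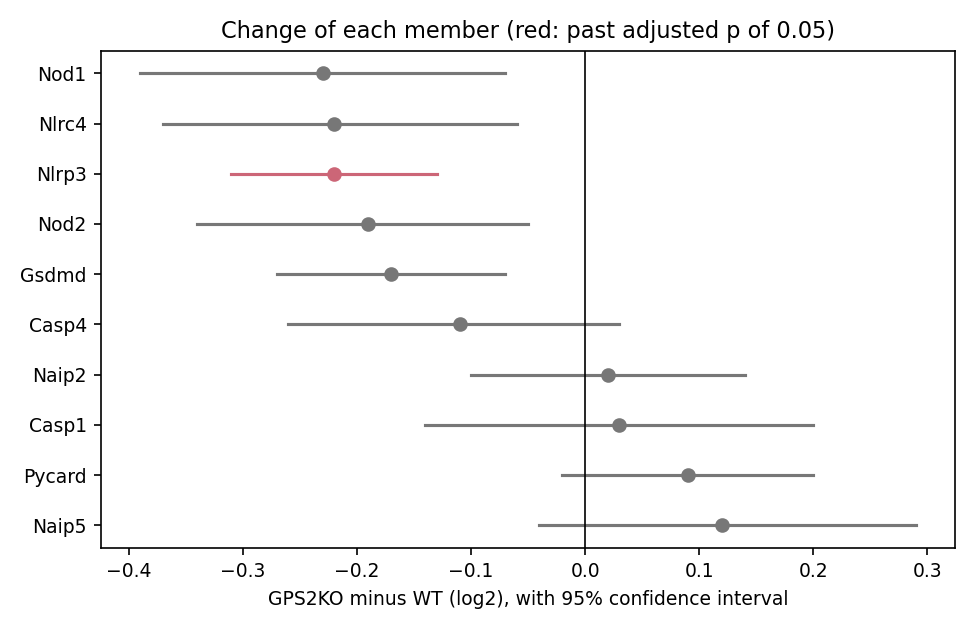
Difference of log2 means, GPS2KO minus WT, for each gene with limma's 95% confidence interval (3 arrays per group) and the gene past the threshold in red. The intervals of Nod1, Nlrc4, Nlrp3, Nod2 and Gsdmd lie below 0, and those of Casp4, Naip2, Casp1, Pycard and Naip5 include 0.

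The sensor was set against its partners within each array, which removes anything that scales a whole array. Nlrp3 minus Pycard was -0.016, -0.071 and 0.088 in WT and -0.324, -0.285 and -0.320 in GPS2KO. Nlrp3 was thus lower relative to its adaptor on every GPS2KO array than on any WT array, with means of 0.00 and -0.31. The arrays of Nlrp3 and those of Pycard were each apart already, in opposite directions. This separation therefore follows from them and adds no further evidence. Against Casp1 the means were 1.04 and 0.79, and the arrays again did not overlap. Against Casp4 the means were 1.42 and 1.32 and the arrays overlapped, as they did against Gsdmd, where the shift between groups was -0.05. For Nlrc4 and the receptors upstream of it, Nlrc4 minus Naip5 was -0.616, -0.649 and -0.395 in WT and -0.765, -0.993 and -0.921 in GPS2KO. These arrays did not overlap either, with means of -0.55 and -0.89. Against Naip2 the shift of Nlrc4 between groups was -0.23 and the arrays overlapped, with WT replicate 1 at -1.841 and GPS2KO replicate 1 at -1.837. An exact 2-sided permutation test of any such difference again cannot go below 0.1, so it is given as a description. Only the shift between groups is read here, since the levels of different probe sets are not comparable.

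**Figure D3:**
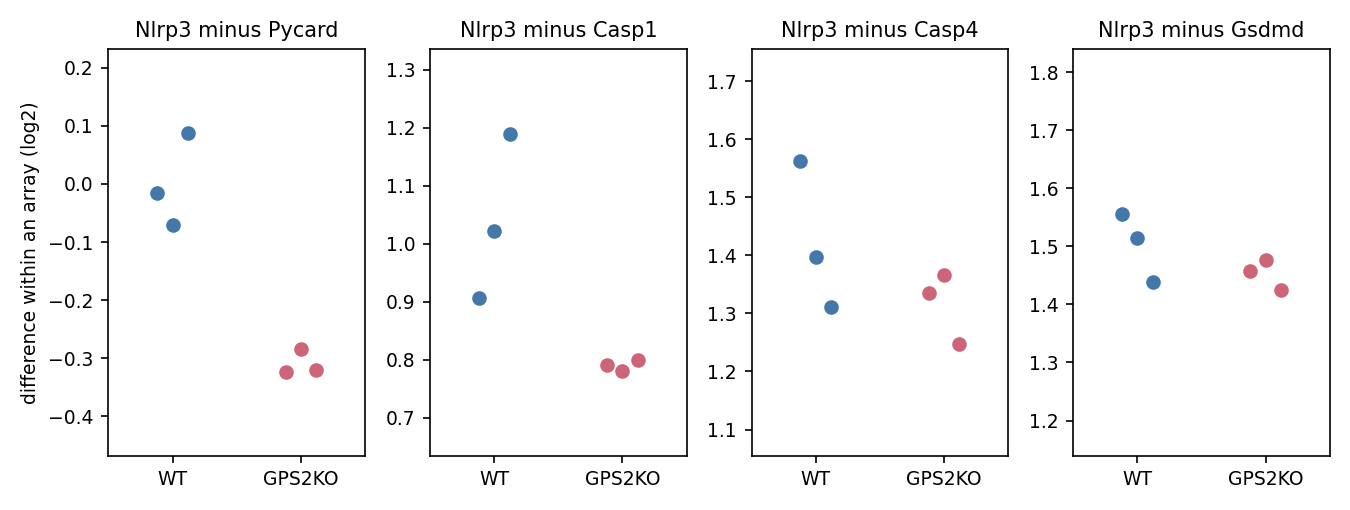
Log2 intensity of Nlrp3 minus that of Pycard, Casp1, Casp4 or Gsdmd within each array, WT in blue and GPS2KO in red, 3 arrays per group. The groups are apart for Pycard (means 0.00 and -0.31) and Casp1 (1.04 and 0.79) and overlap for Casp4 and Gsdmd.

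The profile over the 6 arrays was compared with that of every other tested gene, as the root mean square difference of log2 values centred on each gene's mean. The named genes closest to Nlrp3 were Atp8b2, a phospholipid flippase subunit (0.0139), Qsox2, a sulfhydryl oxidase (0.0153), and Irf9, the DNA-binding subunit of the interferon-activated factor ISGF3 (0.0158). Their changes were -0.22, -0.21 and -0.21. Profiles of 6 arrays in 2 groups are alike mainly through the group difference.

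The other genes of these pathways were taken from a list of 89 ordered by role, of which 79 were tested and 10 were not analysed here. Of the 79, 11 fell, 6 rose and 62 did not pass. This is 21.5% called, against 6.72% of all tested genes. Among genes that are not dim, the shares called were 24.6% of 61 on the list and 10.6% of all. The list's median was -0.04. It includes genes induced by interferon, and lists were chosen with earlier results of these data known, so the excess is a description. At least 1 array decided the call of 7 of the 17 called genes, named with each group below, while the other 10 passed with any 1 array left out.

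Of 18 other NLR genes, 3 fell, 0 rose and 15 did not pass, and 11 were dim. Nlrp1b, a sensor of bacterial proteases, was at 7.898, 8.087 and 8.097 in WT and at 7.612, 7.732 and 7.645 in GPS2KO. All GPS2KO arrays were lower, and the gene fell by 0.36 (SE 0.0638; limma adjusted p = 0.0152). Its paralog Nlrp1a fell by 0.29 (adjusted p = 0.00668) and Nlrc3, described as a negative regulator of innate signalling, by 0.27 (0.0104). Nlrp1a and Nlrp1b are close paralogs whose probes may share signal. The call of Nlrp1b ended without WT replicate 2 or 3 or GPS2KO replicate 1 or 3, at adjusted p up to 0.0586. Of the others, Nlrc5, the activator of class I antigen presentation genes, differed by -0.19 (adjusted p = 0.0629). It had 19 probe sets, all of them lower in GPS2KO, by up to 0.37, and 0 past the threshold when all probe sets were tested (lowest adjusted p = 0.0565). Naip6 differed by 0.06 and the mitochondrial Nlrx1 by -0.04.

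The non-NLR sensors parted. Mefv, which encodes the inflammasome sensor pyrin, was at 6.315, 6.416 and 6.515 in WT and at 5.775, 5.907 and 5.913 in GPS2KO. No GPS2KO array came near the WT arrays, and Mefv fell by 0.55 (SE 0.0635, interval -0.70 to -0.40; limma adjusted p = 0.00257), to 68.3% of the WT signal. Aim2, the sensor of cytosolic DNA, was at 9.49 ± 0.076 and 9.54 ± 0.062 (SD, n = 3 each), a difference of 0.05 (interval -0.07 to 0.18).

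Among 10 genes of interleukin-1 family ligands, receptors and antagonists, 2 rose, 0 fell and 8 did not pass. Il1a, an alarmin, was at 4.519, 4.463 and 4.313 in WT and at 5.411, 5.047 and 4.786 in GPS2KO. It rose by 0.65 (SE 0.143; limma adjusted p = 0.0379) but remained under the dim limit in both groups, where background compresses folds, and its GPS2KO arrays were widely spread. The receptor antagonist Il1rn rose by 0.27 (adjusted p = 0.023). Il1b, named after its values were seen as the main substrate of caspase-1, differed by 0.17 (interval 0.05 to 0.28; adjusted p = 0.107), and Il18 by -0.14 (adjusted p = 0.363). The receptors Il1rap and Il1r1 differed by 0.00 and 0.04. The Il1a call ended without any WT array or GPS2KO replicate 2 (adjusted p up to 0.124), and that of Il1rn without WT replicates 1 or 3 or any GPS2KO array (up to 0.0873).

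Of 16 genes grouped on the list under priming and activation of NLRP3, 2 fell, 1 rose and 13 did not pass. This grouping too is broad, and a role in NLRP3 activation is not claimed for each gene. The interferon-induced GTPases Gbp2 and Gbp3, from a family that exposes bacterial ligands to inflammasome sensors, fell by 0.56 (limma adjusted p = 0.0115) and 0.24 (0.0145), and Tlr4, the receptor that primes the pathway in response to lipopolysaccharide, rose by 0.31 (adjusted p = 0.00448). The Gbp3 call ended without WT replicate 1 or 3 or GPS2KO replicate 1 (up to 0.0567). The chloride channel proteins Clic1 and Clic4 differed by 0.06 and -0.14, and Txnip, which has been described as an NLRP3 ligand, by 0.12.

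Of 7 death effectors, 2 fell and 5 did not pass. Gsdme, the gasdermin cleaved by caspase-3, fell by 0.31 (limma adjusted p = 0.00308), and the necroptosis kinase Ripk3 by 0.20 (0.0329). Gsdme had 3 probe sets that disagreed: the other two, both dim, differed by 0.13 and -0.09, and with the mean of the 3 in its place the gene differed by -0.09 and did not pass (adjusted p = 0.273). The Ripk3 call ended without any array but GPS2KO replicate 1 (up to 0.113). Ninj1, which ruptures the membrane after pore formation, differed by -0.14 (adjusted p = 0.088), Casp8 by 0.02 and the adaptor Fadd by 0.09.

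Of 17 genes of NOD1 and NOD2 signalling, 2 rose, 1 fell and 14 did not pass, and all 3 called genes encode transporters. Slc46a3, an endolysosomal carrier related to transporters of muropeptides, was at 9.255, 9.219 and 9.189 in WT and at 9.819, 9.771 and 9.815 in GPS2KO. The arrays of the groups were far apart, and Slc46a3 rose by 0.58 (SE 0.0389; limma adjusted p = 0.000285), the smallest p of the list. Slc15a3, an endolysosomal peptide carrier, rose by 0.33 (adjusted p = 0.00306), while Slc15a2, a peptide carrier of the plasma membrane with a dim signal, fell by 0.48 (0.0225). Slc15a2 kept its call without WT replicate 3 but lost it without each other array (up to 0.0776). The shared signalling proteins Tab2, Sharpin and Erbin differed by 0.07, -0.05 and 0.03.

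Of 9 genes grouped on the list under restraint of inflammasomes or their proteases, 2 fell, 1 rose and 6 did not pass. The grouping is broad, and a restraining role is not claimed for each gene. Serpinb9, a protease inhibitor, fell by 0.38 (limma adjusted p = 0.00538) and Pstpip2, an adaptor whose loss causes autoinflammation in mice, by 0.34 (0.0107). A second, dim probe set of Pstpip2 differed by -0.08, and the mean of both by -0.21 (0.0212). The ubiquitin editor Tnfaip3 rose by 0.26 (0.0151), a call that ended without GPS2KO replicate 2 or 3 (up to 0.0622). Trim30a, Dhx15 and Pstpip1 differed by -0.09, -0.02 and -0.05.

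**Figure D4:**
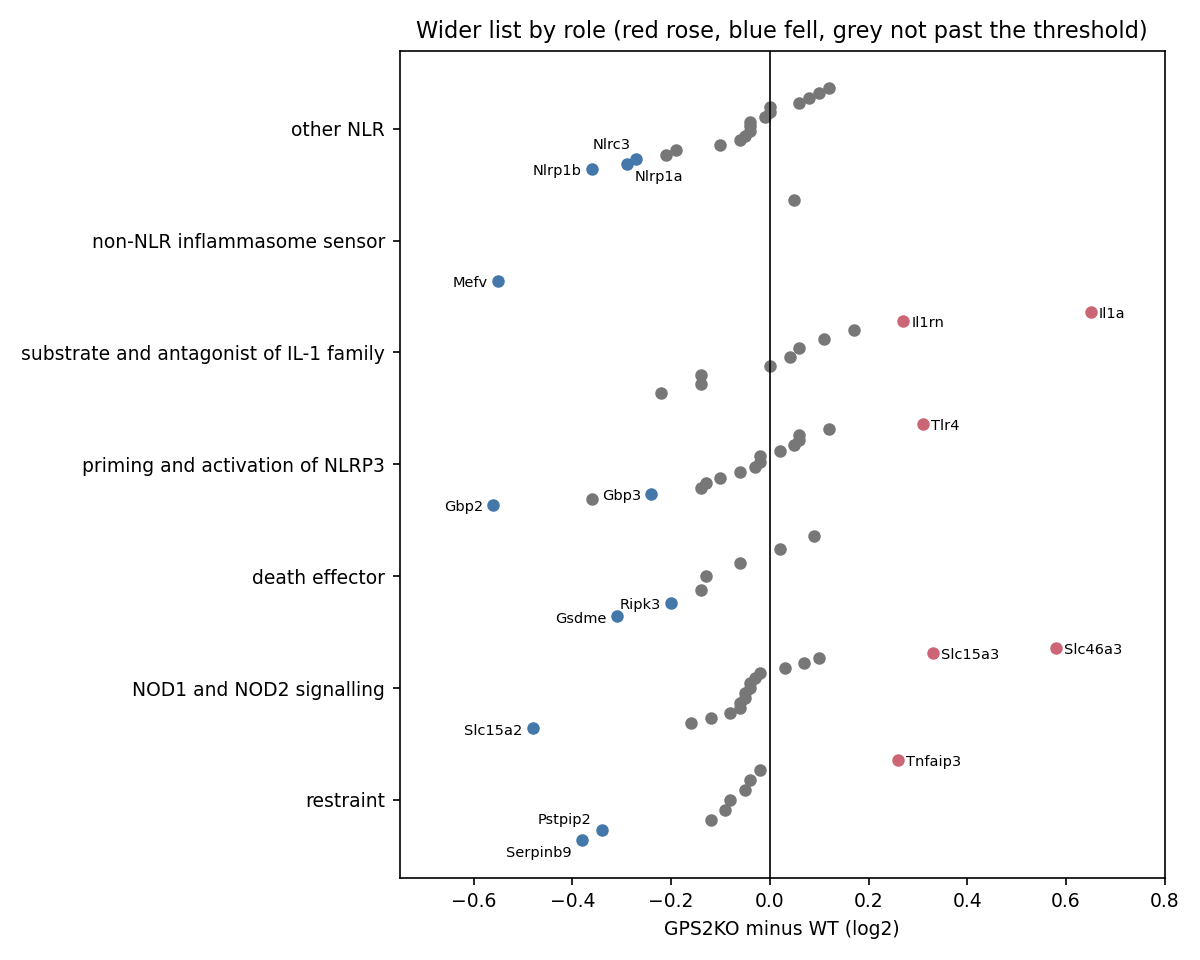
Change of 79 genes of the wider list, as the difference of log2 means (GPS2KO minus WT), by role, with genes that rose in red, fell in blue and did not pass in grey (limma, 3 arrays per group). Most points lie near 0, with Gbp2 (-0.56) and Mefv (-0.55) at the lower end and Slc46a3 (0.58) and Il1a (0.65) at the upper end.

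Gps2 itself was at 10.96 ± 0.038 in WT and 10.21 ± 0.067 in GPS2KO (SD, n = 3 each), a fall of 0.75 (limma adjusted p = 0.000256). The macrophage markers were all above the dim limit: Adgre1, Csf1r, Cd68 and Lyz2 did not pass, and of all 7 markers Itgam and Mertk rose, by 0.19 and 0.24. The summed log2 signal of the 7 was higher on every GPS2KO array, from 84.195 to 84.472 in WT and from 84.968 to 85.044 in GPS2KO. This sum moved mainly through Mertk, Itgam and Fcgr1, which differed by 0.13 and did not pass (limma adjusted p = 0.0851). Adgre1, Cd68 and Csf1r differed by 0.07, 0.04 and 0.03, and Lyz2 by -0.04. All 3 tested B cell markers, the 1 tested erythroid marker, all 5 T and NK cell markers and 3 of 4 mast cell and basophil markers were dim, and 0 of them passed. The sums of the T and NK list were from 22.28 to 22.326 in WT and from 22.054 to 22.254 in GPS2KO, without overlap, and those of the B cell, erythroid and mast cell lists overlapped. Of 7 neutrophil markers 5 were dim and 1, Ngp, rose by 0.46; their summed log2 signals ran from 34.999 to 35.581 in WT and from 35.118 to 36.302 in GPS2KO. The 5 fibroblast markers were above the dim limit, with Col1a1 at 11.97 in WT. Col1a1 fell by 0.20 (limma adjusted p = 0.0225) and Dcn rose by 0.30 (0.0334), while Col1a2, Col3a1 and Pdgfra did not pass, at -0.15, -0.12 and 0.31. Their sums ran from 46.7 to 47.56 and from 47.05 to 47.61, overlapping between groups. Of 4 monocyte markers 2 were tested: Ccr2 fell by 0.97, and Chil3 was dim and differed by 0.03. Of the 6 dendritic cell markers Itgax rose by 1.00, while Ccr7 and Zbtb46 did not pass, at -0.05 and -0.09. Flt3, Xcr1 and Clec9a were dim. Sums ran from 12.13 to 12.23 in WT and from 11.21 to 11.3 in GPS2KO for the monocyte list, and from 32.21 to 32.51 and from 33.12 to 33.33 for the dendritic list. The monocyte sum moved mainly through Ccr2 and the dendritic sum mainly through Itgax, so neither describes its list as a whole. The part of any of these cell types in the values above was not tested, and in bulk RNA fewer cells of a type and less RNA per cell cannot be told apart.

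Calls among the 10 genes were compared over the other settings. At the threshold of 0.05, Nlrp3 passed in 7 of 8 settings that kept all arrays and in 3 of 6 with 1 array left out. The stricter threshold of 0.01 is not among these 8, and Nlrp3 did not meet it in the main fit (limma adjusted p = 0.0143). Nod1, Nlrc4 and Nod2 did not pass in any of the 8, with adjusted p down to 0.0504 for Nod1, 0.0519 for Nlrc4 and 0.0691 for Nod2. For these 5 genes, Gsdmd included, the change stayed below 0 in every setting. Over all tested genes 545 rose and 720 fell, a share of rises of 43.1%; centring on the median of all probe sets gave 30.2% and centring on that of the tested genes 53.7%.

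**Figure D5:**
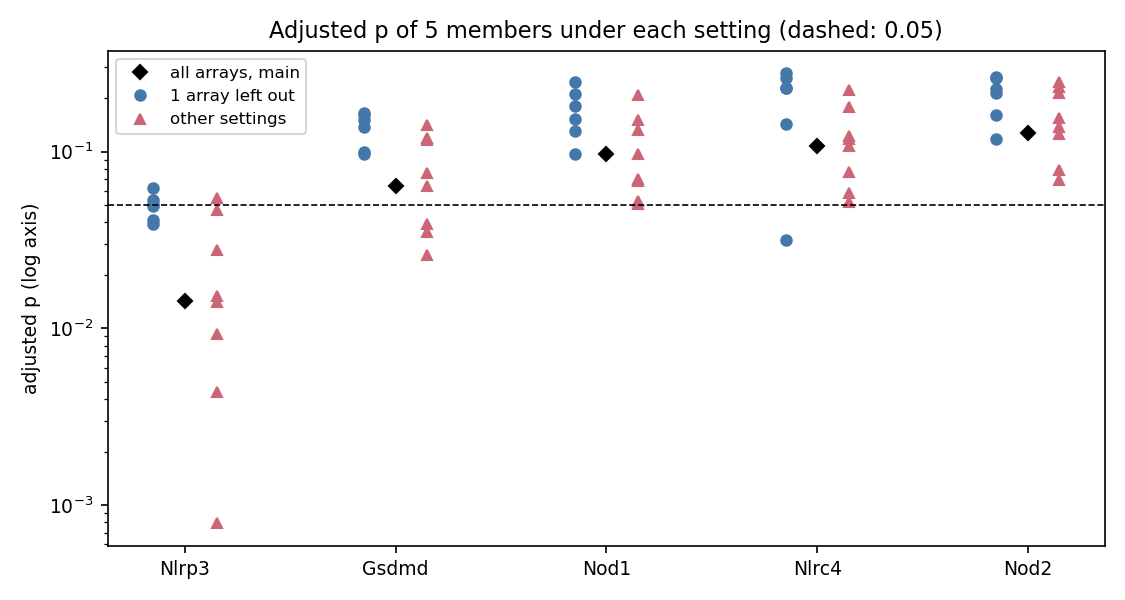
Adjusted p from limma for 5 genes on a log axis: the main setting (black), 1 array left out (blue) and other settings (red), with a dashed line at 0.05. The Nlrp3 points lie on both sides of the line, from 0.000792 to 0.0622.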

How the data were processed

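RNA of 6 samples, 3 WT and 3 GPS2KO, was measured on Affymetrix arrays. The deposited values are log2 intensities that the authors made with RMA in the R package oligo, per the submitters' processing notes. Versions and the array build are not given in the sources used here. RMA normalizes arrays to each other, which hides shifts common to most genes, and no detection calls came with the values. Of 35556 probe sets, 21218 had 1 symbol in GEO's platform annotation, 1881 had several and 12457 were not listed; 21185 matched RefSeq (GRCm38.p6) by gene number.

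The 18820 genes were fitted with limma 3.58.1 under R 4.3.3 (lmFit and eBayes, group only), 2-sided, with Benjamini-Hochberg adjustment. The number of arrays limits the precision. Simulated data for GPS2KO against WT, drawn for the same 18820 genes, served as a test: limma called 34% of 50 genes shifted by 0.25 (log2), 72% of 50 shifted by 0.5, and 8 of 18620 unchanged genes. The members, lists and tests were chosen with earlier results of these data known. Named were all 10 members, every called gene of the wider list, up to 3 uncalled ones per role by highest signal, and the 3 genes closest to a called member; Il1b was named after its values were seen. Marker genes were taken from a list written with the design. Alternatives were a second quantile normalization, median centring, a variance trend, a filter on dim genes, the mean of probe sets, a test of all probe sets, the replicate number as a block, a threshold of 0.01 and leaving out each array.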

Additional observations from a re-analysis of the deposited data

How the results depend on the processing

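Over 14 alternatives, 0 results turned direction where a call was involved. Leaving out 1 array gave 419 to 503 falls and 322 to 376 rises over all genes (720 and 545 with all arrays), 0 to 1 falls among the 10 members and, on the wider list, 8 to 10 falls and 3 to 5 rises (11 and 6); Nlrp3 lay between -0.23 and -0.20 and Nlrc4 between -0.29 and -0.17. A variance trend gave 1248 falls and 926 rises over all genes, and leaving out dim genes 1154 falls and 808 rises. Testing all 35556 probe sets gave 412 falls and 412 rises counted as probe sets, and 343 falls and 275 rises over the probe sets that stand for genes. Gsdmd passed with the variance trend (-0.17), without dim genes (-0.17) and with arrays centred on their medians (-0.19), which made 2 falls among the members in each case. With all probe sets tested, 6 genes of the wider list fell and 3 rose, and 8 of its 17 calls ended. Other settings added calls to that list. Centring arrays on their medians gave 16 falls and 6 rises (5 calls gained), and a variance trend 16 and 7 (6 gained). Leaving out dim genes gave 16 falls and 5 rises among 61 genes (6 gained), with the dim Il1a and Slc15a2 no longer tested. Nlrc5, Clic4 and Birc3 gained a call in each of these settings. At an adjusted p under 0.01 there were 301 falls and 233 rises over all genes, 0 among the members, and 4 and 3 on the wider list. With a replicate block, 492 genes fell and 370 rose, 0 members passed and Nlrp3 was at -0.22 (limma adjusted p = 0.0546), and the wider list had 11 falls and 6 rises, of which 16 calls were shared with the fit without the block: Ripk3 ended (adjusted p = 0.064) and Gbp5 gained a call (-0.36, adjusted p = 0.0483). Samples of the same number did not deviate together (correlations of -0.00604 to 0.0258), and samples of different numbers had correlations of -0.0277 to 0.0237. All were small, and the numbers were not taken as pairs. The cause of these shifts was not tested. Centring on the median of the tested genes was added after the data were seen. Arrays give no depth, and without detection calls the signal over background of dim genes is unknown.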
